A study of Mus musculus with 10 samples.

Results

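The genes described are 9 that encode large secreted glycoproteins of the extracellular matrix: the hemicentins Hmcn1 and Hmcn2, the tenascins Tnxb and Tnc, fibronectin Fn1, periostin Postn, versican Vcan and the thrombospondins Thbs1 and Thbs2. They were found by gene symbol, and all 9 were among the 20579 genes of the deposited table. Hmcn2 and Tnxb were chosen by their measured fall in p57KO, so their genotype difference is a description with no test, while the other 7 were listed by name and are tested. Counts came from RNA of intestinal cells of mouse embryos at stage E18.5, sorted for green fluorescent protein made under the Hopx promoter, which is used to mark reserve stem cells of the crypt. The groups were 5 p57KO libraries, whose genotype lacks the cyclin-dependent kinase inhibitor p57Kip2 (gene Cdkn1c), and 5 p57WT libraries, all with the strain label C57BL6/J / 129S4 and all carrying the reporter. How the knockout allele was made, and in which cells it is lost, is not given in the sources used here, and nothing says beyond the count of intestines that the libraries were separate animals, so p-values measure the spread between these libraries. Descriptions of the samples also carry a number whose meaning is not given: 607 for p57KO 1, p57KO 2 and p57WT 1, 608 for p57KO 3 to 5, and 740 for p57WT 2 to 5.

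The extracellular matrix is the mesh of secreted proteins that holds tissues together and passes force and signals to cells. In the gut it is made mainly by fibroblasts and smooth muscle of the wall, with basement membrane at the border to the epithelium. Hemicentins are very long chains of immunoglobulin domains that anchor tissue layers to each other, tenascins and thrombospondins modulate how cells grip fibronectin, periostin ties fibronectin and tenascin to collagen, and versican binds hyaluronan to make a loose, hydrated matrix.

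Total counts per library ran from 8037887 to 26809231, and 3 counts corresponded to 0.105 to 0.392 CPM (library-scaled counts, as edgeR's cpm function gives them). Cdkn1c was at 0.153 to 2.06 CPM in p57KO and 151 to 458 CPM in p57WT, so the genotype labels held in all 10 libraries. Hopx was measured in every library, at 127 to 199 CPM in p57KO and 60.4 to 78.1 CPM in p57WT. The 16 epithelial markers summed to 9510 to 19200 CPM in p57KO and 3320 to 7870 CPM in p57WT. Markers of cell types other than epithelium were also present, and whether those cells made the reporter was not tested. The 10 smooth muscle markers summed to 4240 to 30300 CPM in p57KO and 41400 to 90900 CPM in p57WT. The 8 measured fibroblast markers summed to 122 to 1270 CPM in p57KO and 2560 to 9040 CPM in p57WT. The 11 measured myeloid markers went the other way, at 214 to 8670 CPM in p57KO and 28.8 to 173 CPM in p57WT, and p57KO 2 stood apart at 8670 CPM. Ribosomal RNA repeats took under 0.5% of counts in p57KO 1 to 4 and p57WT 2 and between 9.47% and 17% in the other 5 libraries. In bulk RNA, fewer cells of a type and less RNA per cell cannot be told apart.

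Promoter sequence is shown for 4 of the genes, since their RNA levels set the pattern described below. Hmcn2 and Tnxb were the 2 picked for their low p57KO level, Tnc fell in the test, and Vcan did not. Of the 9 genes, 7 were found in the RefSeq promoter table of GRCm38.p6, which holds 250 bases before and 50 after each transcript start. Each sequence is given 5′ to 3′ on the gene's strand, and capitals mark matches to the motifs searched on both strands: the AP-1 site TGANTCA, the TEAD site GGAATG, the GC box GGGCGG, the TATA box TATAAA and the CArG box. These motifs were chosen after the sequences had been seen.
Hmcn2, chr2:31314082-31314381, plus strand: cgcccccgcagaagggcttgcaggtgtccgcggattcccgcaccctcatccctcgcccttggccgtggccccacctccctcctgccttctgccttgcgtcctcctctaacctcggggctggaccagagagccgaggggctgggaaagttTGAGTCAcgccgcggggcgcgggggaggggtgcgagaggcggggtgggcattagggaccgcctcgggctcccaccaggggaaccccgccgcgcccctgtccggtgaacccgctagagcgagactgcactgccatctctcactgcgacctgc
Tnxb, chr17:34670285-34670584, plus strand: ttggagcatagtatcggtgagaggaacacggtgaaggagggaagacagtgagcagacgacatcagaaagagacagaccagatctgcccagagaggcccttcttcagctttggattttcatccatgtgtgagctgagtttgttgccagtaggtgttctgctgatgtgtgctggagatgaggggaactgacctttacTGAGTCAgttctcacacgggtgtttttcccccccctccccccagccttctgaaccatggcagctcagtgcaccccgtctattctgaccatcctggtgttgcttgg
Tnc, chr4:64046966-64047265, minus strand: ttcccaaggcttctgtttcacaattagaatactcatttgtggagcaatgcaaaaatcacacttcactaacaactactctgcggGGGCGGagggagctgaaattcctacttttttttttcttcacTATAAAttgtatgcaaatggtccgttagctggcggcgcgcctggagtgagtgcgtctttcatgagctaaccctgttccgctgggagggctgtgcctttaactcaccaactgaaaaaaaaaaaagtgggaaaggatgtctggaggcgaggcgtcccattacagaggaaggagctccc
Vcan, chr13:89742463-89742762, minus strand: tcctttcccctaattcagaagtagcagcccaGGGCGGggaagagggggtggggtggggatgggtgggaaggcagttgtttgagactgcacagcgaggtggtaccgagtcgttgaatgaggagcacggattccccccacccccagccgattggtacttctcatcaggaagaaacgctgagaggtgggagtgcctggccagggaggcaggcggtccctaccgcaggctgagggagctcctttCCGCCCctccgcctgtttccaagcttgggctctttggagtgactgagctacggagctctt

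Hmcn2 and Tnxb each held a single match to the AP-1 letters, and neither held any of the other motifs. The match began at offset -101 from the transcript start in Hmcn2 and at offset -55 in Tnxb. The other 5 promoters held no AP-1 match, and 7.81% of all 32851 promoters in the table did. GC boxes were found in Tnc (1 match) and Vcan (2 matches), against 35.7% of all promoters with at least 1. TATA letters were found in Tnc, Postn and Thbs2 (13.6% of all promoters), the TEAD letters in Hmcn1 only among the 7 (14.7%), and the CArG box in none of the 7 (1.63%). The Hmcn2 promoter was 70.7% G and C, against a median of 52.7% over all promoters, and its RefSeq start lay 83 bases before the start of the gene in GENCODE M21. These matches describe letters in the window and not bound sites.

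Hmcn2 (ENSMUSG00000055632, chromosome 2, 31314415 to 31460738, plus strand, GRCm38) was chosen by its genotype difference, which is given here as a description. Its level was 6.97, 7.03, 27.2, 16.6 and 56.8 CPM across p57KO 1 to 5 and 280, 438, 472, 395 and 360 CPM across p57WT 1 to 5. Every p57KO library was below every p57WT library, and p57KO 1 and p57KO 2 were the lowest. Means over the libraries were 22.9 ± 20.7 and 389 ± 74.1 CPM (SD, n = 5 each), a log2 fold change of -4.09 (SE 0.55), which is 17-fold lower. Leaving out p57KO 5 moved the value to -4.73. Its paralog Hmcn1 (ENSMUSG00000066842, chromosome 1, 150562524 to 150993435, minus strand) was barely expressed. It had 1.98, 1.65, 3.12, 3.18 and 6.53 CPM across p57KO 1 to 5 and 4.44, 2.85, 3.15, 3.92 and 17.2 CPM across p57WT 1 to 5, from 23 to 145 counts per library. The genotypes overlapped and p57WT 5 lay far above the others. Hmcn1 did not pass (log2 fold change -0.94, SE 0.57, 95% limits -2.17 to 0.30, edgeR adjusted p = 0.209), and without p57WT 5 its value was -0.13 (edgeR adjusted p = 0.861). Per kilobase of exon, the p57WT level of Hmcn2 was 24.2 ± 4.61 CPM and that of Hmcn1 0.298 ± 0.289 CPM, so in p57WT nearly all hemicentin RNA was Hmcn2.

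Tnxb (ENSMUSG00000033327, chromosome 17, 34670535 to 34719815, plus strand), whose product tenascin-X spaces and stabilises collagen fibrils, had the pattern of Hmcn2. It was at 0.774, 1.19, 14.4, 7.98 and 18.2 CPM across p57KO 1 to 5 and at 75.8, 116, 112, 142 and 151 CPM across p57WT 1 to 5. The groups did not overlap, and p57KO 1 and p57KO 2 were again lowest, with 9 and 28 counts. Means over the libraries were 8.50 ± 7.78 and 119 ± 29.5 CPM (SD, n = 5 each), a log2 fold change of -3.81 (SE 0.71). Tnc (ENSMUSG00000028364, chromosome 4, 63959785 to 64047015, minus strand) encodes tenascin-C, which is made in developing mesenchyme and in repair. It had 10.1 CPM in p57KO 1, 18.2 in p57KO 3, 9.93 in p57KO 4 and 20.0 in p57KO 5, with p57KO 2 between the last of these and p57KO 3, and 80.1, 191, 96.7, 108 and 144 CPM across p57WT 1 to 5. The highest p57KO value was 2.02 times the lowest, all lay below all p57WT values, and p57KO 1 and p57KO 2 were not set apart as they were for Tnxb. Tnc fell 8.06-fold (log2 fold change -3.01, SE 0.32, edgeR adjusted p = 0.000178). Its log2 value ranged from -3.13 to -2.80 when any 1 of the 10 libraries was left out, and it passed each time.

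Of the 7 genes open to the test, 4 fell (Tnc, Fn1, Postn and Thbs2) and 0 rose, where 17.2% of all 16710 genes tested were called lower and 19.3% higher (36.5% in either direction). At an unadjusted edgeR p under 0.05 the counts were also 4 and 0, but the share of all genes at that threshold is not given here. DESeq2 and limma voom gave 4 lower and 0 higher too, where DESeq2 called 17.5% of genes lower and 20.9% higher and limma voom 20.2% and 18.0%. All p57KO libraries were below all p57WT libraries for 3 of the 7 (Tnc, Fn1 and Postn), against 12.7% of all genes tested. The median log2 fold change of the 7 was -1.79, against 0.08 over all genes. All 9 genes have long annotated transcripts, the longest of each being 5223 to 17908 bases, and long transcripts were more often lower in p57KO. The 5223 bases are those of a Postn transcript with 2 exons, and whether it is the form expressed was not tested. Of 2072 tested genes with a longest transcript over 6 kb, 33.9% were called lower (median log2 fold change -0.51), against 9.15% of 4865 genes under 2 kb (median 0.46). Between 4 and 6 kb, where Postn, Thbs1 and Thbs2 lie, 22.9% of 3404 genes were called lower (median -0.19). The part of transcript length in the values of these genes was not tested.

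**Figure D1:**
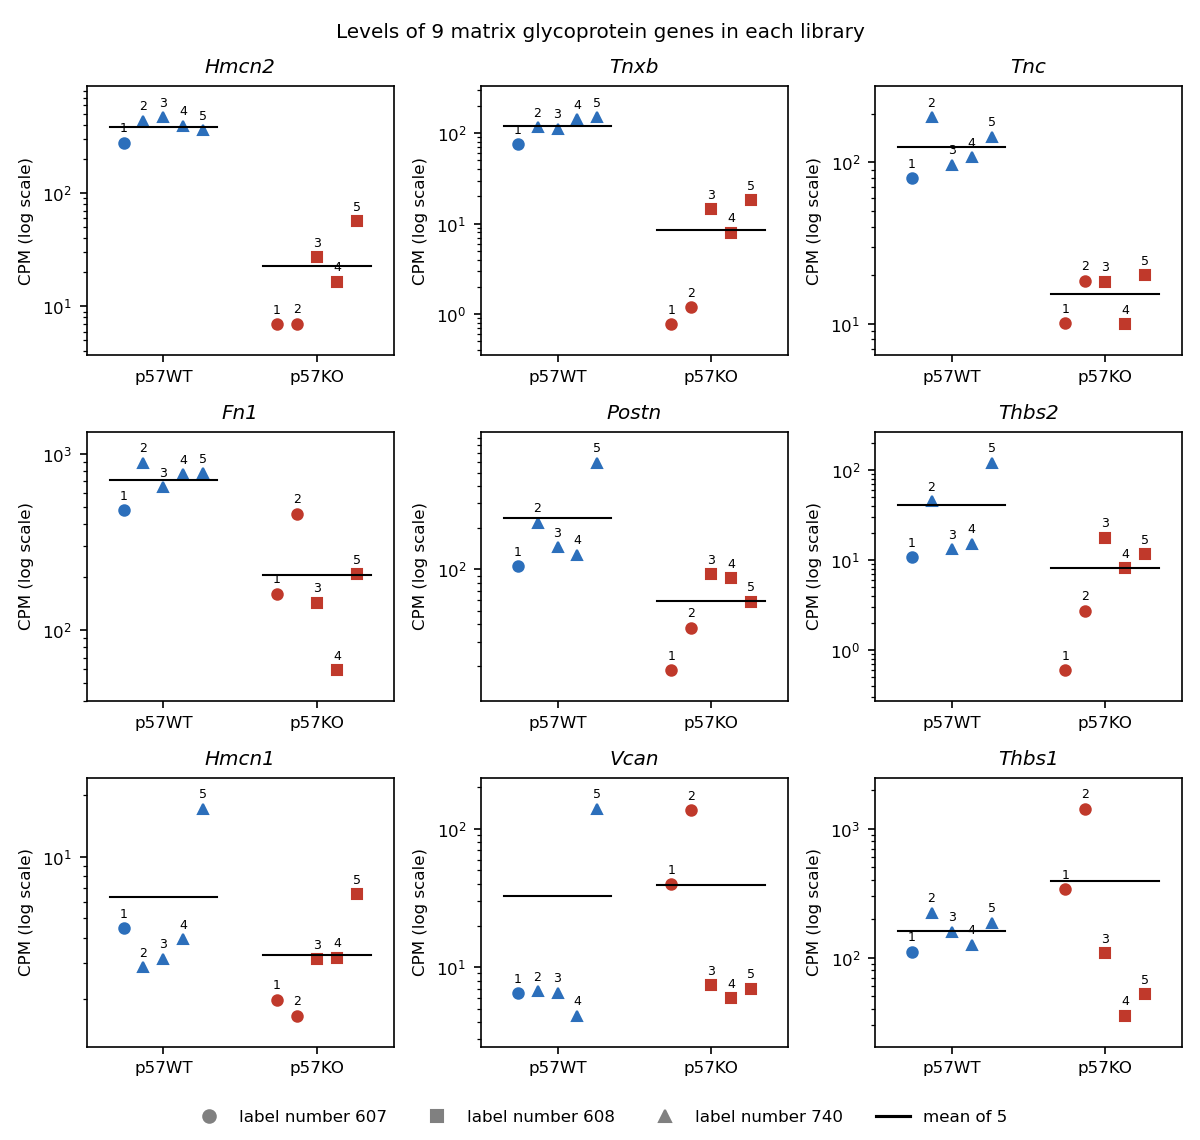
CPM (log axis) of each of the 9 genes in the 5 p57WT (blue) and 5 p57KO (red) libraries, with the library number above each point, the label number as the symbol and the mean of 5 as a line. Hmcn2 and Tnxb, picked for their fall, do not overlap between genotypes. Nor do Tnc, Fn1 and Postn, 3 of the other 7. Of all genes tested, 12.7% had every p57KO library below every p57WT library. The libraries p57KO 1 and p57KO 2 are lowest for Hmcn2 and Tnxb and highest among p57KO for Vcan and Thbs1. In p57WT 5, Postn, Thbs2, Hmcn1 and Vcan stand above the other p57WT libraries.

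Fn1 and Postn encode proteins of the fibrillar scaffold. Fn1 (ENSMUSG00000026193, chromosome 1, 71585520 to 71653200, minus strand), the fibronectin gene whose product binds integrins and organises other matrix fibres, was the most abundant of the 9 per kilobase in p57WT (60.9 ± 13.3 CPM per kb). It was at 161, 459, 143, 59.6 and 208 CPM across p57KO 1 to 5 and at 481, 889, 647, 767 and 776 CPM across p57WT 1 to 5. The groups met closely, since p57KO 2 nearly reached p57WT 1, but did not overlap. Fn1 fell 3.46-fold (log2 fold change -1.79 with SE 0.44, edgeR adjusted p = 0.00767), and its value without p57KO 2 was -2.31. Postn (ENSMUSG00000027750, chromosome 3, 54361109 to 54391037, plus strand) was at 18.7, 37.8, 92.1, 86.7 and 58.2 CPM across p57KO 1 to 5 and at 105, 217, 144, 128 and 590 CPM across p57WT 1 to 5. Here p57WT 5 was 2.73 times the next p57WT library, and the lowest values were again p57KO 1 and p57KO 2. Postn fell 4.03-fold (log2 fold change -2.01, SE 0.53, edgeR adjusted p = 0.011). Without p57WT 5 it was at -1.34 and still passed (edgeR adjusted p = 0.0322).

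Vcan (ENSMUSG00000021614, chromosome 13, 89655312 to 89742509, minus strand) was low in 7 libraries and high in 3. It was at 39.8, 137, 7.42, 5.98 and 6.96 CPM across p57KO 1 to 5 and at 6.49, 6.72, 6.53, 4.45 and 140 CPM across p57WT 1 to 5. The high libraries were p57KO 1, p57KO 2 and p57WT 5, so the genotypes overlapped. Vcan did not pass (log2 fold change 0.27, SE 1.09, 95% limits -2.09 to 2.63, edgeR adjusted p = 0.866), and these limits leave room for a large difference either way. Single libraries decided its value: without p57WT 5 it was at 2.70 and passed as higher (edgeR adjusted p = 0.0415), where 13.5% of all genes were called lower and 14.8% higher, and without p57KO 2 it was at -1.18 (edgeR adjusted p = 0.408). With all 3 high libraries left out it was at 0.17 (SE 0.31, edgeR adjusted p = 0.692).

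The thrombospondins bind calcium, heparin and integrins, and Thbs1 is also released by platelets and made by activated myeloid cells. Thbs1 (ENSMUSG00000040152, chromosome 2, 118111876 to 118127133, plus strand) was at 338, 1430, 108, 35.4 and 52.1 CPM across p57KO 1 to 5 and at 111, 223, 159, 126 and 186 CPM across p57WT 1 to 5. The p57KO libraries lay on both sides of p57WT, with p57KO 1 and p57KO 2 above every p57WT library and p57KO 3 to 5 below. Thbs1 did not pass (log2 fold change 1.28, SE 0.80, 95% limits -0.45 to 3.01, edgeR adjusted p = 0.222). Without p57KO 2 the value turned to -0.31, and with the 3 libraries of label number 607 left out it was at -1.40 and passed as lower (edgeR adjusted p = 0.0151), where 18.8% of all genes were called lower and 17.6% higher. Thbs2 (ENSMUSG00000023885, chromosome 17, 14665500 to 14694235, minus strand) was lower in p57KO 1 and p57KO 2 than in p57KO 3 to 5, where Thbs1 was higher in the former. It was at 0.602, 2.75, 17.8, 8.17 and 11.6 CPM across p57KO 1 to 5 and at 10.8, 45.4, 13.2, 15.2 and 121 CPM across p57WT 1 to 5. The groups overlapped, because p57KO 3 and p57KO 5 exceeded p57WT 1. Thbs2 passed over all libraries (log2 fold change -2.32, SE 0.82, edgeR adjusted p = 0.0403), but the call was lost without p57KO 2, p57KO 4, p57WT 2 or p57WT 5 (edgeR adjusted p = 0.0895, 0.0787, 0.0641 and 0.17), and without p57WT 5 its value was -1.37. It was also lost with no expression filter (-2.23, edgeR adjusted p = 0.051) and without label number 607 (-1.94, edgeR adjusted p = 0.0538). The log2 ratio of Thbs1 to Thbs2 was 4.75 ± 3.45 in p57KO and 2.55 ± 1.18 in p57WT (SD, n = 5 each). This difference of 2.2 was within the spread between libraries (exact two-sided permutation test, p = 0.294, smallest possible 0.00794), since the ratio was 8.26 and 8.78 in p57KO 1 and p57KO 2 and 2.05 to 2.56 in p57KO 3 to 5.

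Compared per kilobase of exon, the p57WT levels ran from Fn1 (60.9 ± 13.3 CPM per kb) through Postn (27.2 ± 23.2), Thbs1 (26.5 ± 7.46), Hmcn2 (24.2 ± 4.61), Tnc (15.9 ± 5.66), Tnxb (9.77 ± 2.42), Thbs2 (5.86 ± 6.67) and Vcan (2.27 ± 4.15) to Hmcn1 (0.298 ± 0.289). Postn, Thbs1 and Hmcn2 were closer to each other than the spread of Postn. Each neighbouring pair from Tnxb down to Hmcn1 also lay within the larger spread of the pair. In p57KO the level per kilobase was highest for Thbs1 (64.6 ± 97.4 CPM per kb) and Fn1 (17.6 ± 13), neighbours that were closer than the spread of Thbs1. Postn followed at 6.75 ± 3.61, within the spread of Fn1, and Vcan at 2.73 ± 3.91. Tnc was at 1.98 ± 0.632, Hmcn2 at 1.43 ± 1.29, Thbs2 at 1.17 ± 0.988, Tnxb at 0.697 ± 0.637 and Hmcn1 at 0.155 ± 0.0912 CPM per kb, and each neighbouring pair from Vcan down to Hmcn1 lay within the larger spread of the pair. Hmcn2 stood among the 4 highest of the 9 in p57WT and near Tnc and Thbs2 in p57KO.

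Within p57KO the label numbers separated several of the genes. The choice of Hmcn2 and Tnxb did not use this split, but it used the same p57KO counts. Between the 3 libraries of 608 and the 2 of 607, 6.68% of all genes tested (1116) were called in edgeR. Of the 9 genes, 3 were among them: Hmcn2 and Tnxb, picked for their low p57KO level, and Thbs1, which was not. The count over all genes was 348 without p57KO 3, 526 without p57KO 1 and 601 without p57KO 4. Without p57KO 1 or p57KO 2, 607 keeps 1 p57KO library, which is assumed to vary like the other groups, so a call lost there says little about stability. Tnxb averaged 13.5 CPM in 608 and 0.980 CPM in 607 (log2 difference 3.73, SE 0.45, edgeR adjusted p = 0.00231). Hmcn2 averaged 33.5 and 7 CPM (log2 difference 2.25, SE 0.47, edgeR adjusted p = 0.0177), but did not pass without p57KO 1 (edgeR adjusted p = 0.087). Thbs1 went the other way, with 65.0 CPM in 608 and 883 CPM in 607 (log2 difference -3.76, SE 0.59, edgeR adjusted p = 0.00517). The values of Thbs2 (2.83, edgeR adjusted p = 0.0978), Vcan (-3.71, 0.0938), Postn (1.48, 0.168), Fn1 (-1.18, 0.174), Hmcn1 (1.23, 0.386) and Tnc (0.16, 0.86) did not pass. In the same libraries the summed smooth muscle markers were 4240 and 6960 CPM in 607 against 19600 to 30300 CPM in 608, the fibroblast markers 122 and 232 against 742 to 1270 CPM, and the myeloid markers 1170 and 8670 against 214 to 1050 CPM. Their part in these differences was not tested.

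Only label number 607 holds both genotypes. With label number as a term, which compares p57KO 1 and p57KO 2 with p57WT 1, Tnc fell (log2 value -2.48, edgeR adjusted p = 0.0158), the single call among the 7, where 4.94% of all genes were called lower and 1.10% higher. Hmcn2 was at -5.32 and Tnxb at -6.22 there. Fn1 (-0.63, edgeR adjusted p = 0.613), Postn (-1.89, 0.174), Thbs2 (-2.61, 0.204) and Thbs1 (2.99, 0.0715) did not pass. With the ribosomal RNA class as a term, Tnc (-3.09, edgeR adjusted p = 0.00151) and Fn1 (-1.90, 0.029) passed and Postn (-1.97, 0.0657) and Thbs2 (-2.21, 0.134) did not, where 10.5% of all genes were called lower and 7.22% higher. Without p57KO 1, p57KO 2 and p57WT 5, the libraries that stood apart, Tnc (-2.88), Fn1 (-2.35), Postn (-0.90, edgeR adjusted p = 0.0311) and Thbs1 (-1.24, edgeR adjusted p = 0.0287) were lower and passed, where 17.5% of all genes were called lower and 17.1% higher. Thbs2 lost its call there, with a log2 value of -0.74 (edgeR adjusted p = 0.249). Hmcn2 was at -3.58 and Tnxb at -3.05.

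The levels of the genes were set beside those of the marker lists. As deviations from the mean of the own genotype over the 10 libraries, which share library and depth with the markers, Tnxb and Hmcn2 had Pearson correlations of 0.97 and 0.91 with the mean of the smooth muscle markers. Thbs2 and Postn had correlations of 0.96 and 0.89 with the fibroblast markers, and Vcan and Thbs1 of 0.93 and 0.82 with the myeloid markers. The lists overlapped in this: Tnxb and Hmcn2 were also at 0.87 and 0.76 with the fibroblast markers, Thbs2 at 0.76 with the smooth muscle markers and Postn at 0.83 with the mesothelial markers. Tnc and Fn1 reached at most 0.54 (fibroblast) and 0.56 (myeloid), and differences between lists were not tested. Among the genes themselves, Postn and Thbs2 were most alike by Pearson correlation (0.96). Hmcn2 and Tnxb (0.93), Fn1 and Thbs1 (0.80) and Tnxb and Thbs2 (0.78) followed. Thbs1 ran against Tnxb (-0.76) and Hmcn2 (-0.70). By Spearman rank correlation the order differed. Postn and Thbs2 stayed highest (0.92), Vcan and Thbs1 followed (0.89), Hmcn2 and Tnxb were at 0.77 and Fn1 and Thbs1 at 0.62. With 10 libraries these are descriptions, and p57KO 1, p57KO 2 and p57WT 5 carry much of the range. The fibroblast markers were highest in p57WT 5 at 9040 CPM, and its myeloid markers, 173 CPM, were highest among p57WT.

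**Figure D2:**
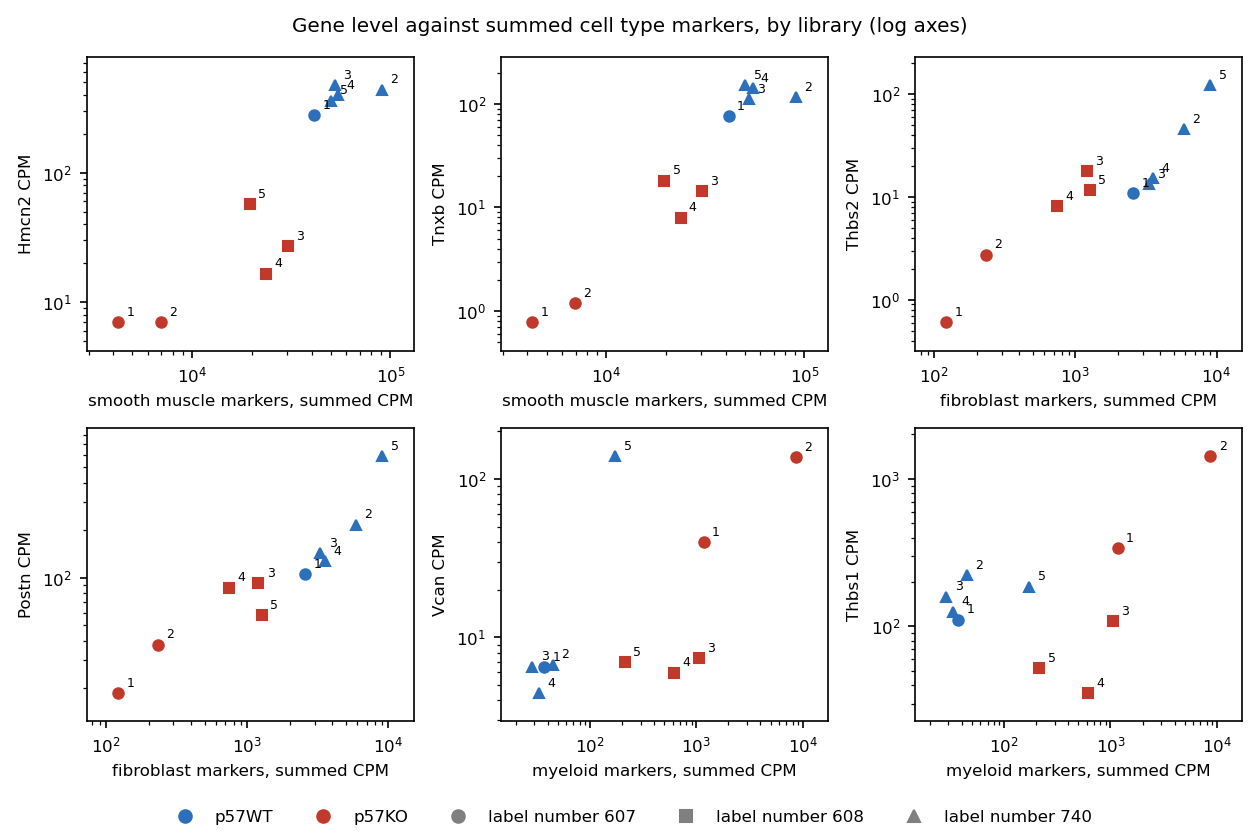
CPM of 6 of the genes against the summed CPM of smooth muscle, fibroblast or myeloid markers in each library, on log axes, with genotype as colour, label number as symbol and library number beside each point. Hmcn2 and Tnxb drop to 6.97 and 0.774 CPM in p57KO 1, where smooth muscle markers sum to 4240 CPM. Vcan and Thbs1 reach 137 and 1430 CPM in p57KO 2, where myeloid markers sum to 8670 CPM. Vcan is as high in p57WT 5 (140 CPM), where myeloid markers sum to only 173 CPM. In p57KO 3 it is low (7.42 CPM) at a myeloid sum of 1050 CPM.

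The libraries were also scaled to equal levels of a marker list. Scaled to the fibroblast markers, the median of all genes moved from 0.08 to 2.89, and 0 of the 7 tested genes were lower and 3 higher (Hmcn1, Vcan and Thbs1), where 0.305% of all genes were called lower and 82.2% higher. On that scale Hmcn2 was at -2.16 (SE 0.71) and Tnxb at -2.09 (SE 0.70), and Tnc was at -0.34 (edgeR adjusted p = 0.648), Thbs2 at 0.06 (0.944) and Postn at 0.61 (0.398). Scaled to the smooth muscle markers, the median of all genes was 3.06, Hmcn2 was at -1.93 (SE 0.52) and Tnxb at -1.95 (SE 0.56), and Tnc was at -0.10 (edgeR adjusted p = 0.876), with 0 lower and 2 higher (Vcan and Thbs1) against 0.329% and 85.5% of all genes. The values of Hmcn2 and Tnxb on these scales belong to the contrast they were chosen by and are given as a description. Scaled to the epithelial markers, the median of all genes was -1.23 and 5 of the 7 were lower (Hmcn1, Tnc, Fn1, Postn and Thbs2), where 59.9% of all genes were called lower and 2.79% higher.

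**Figure D3:**
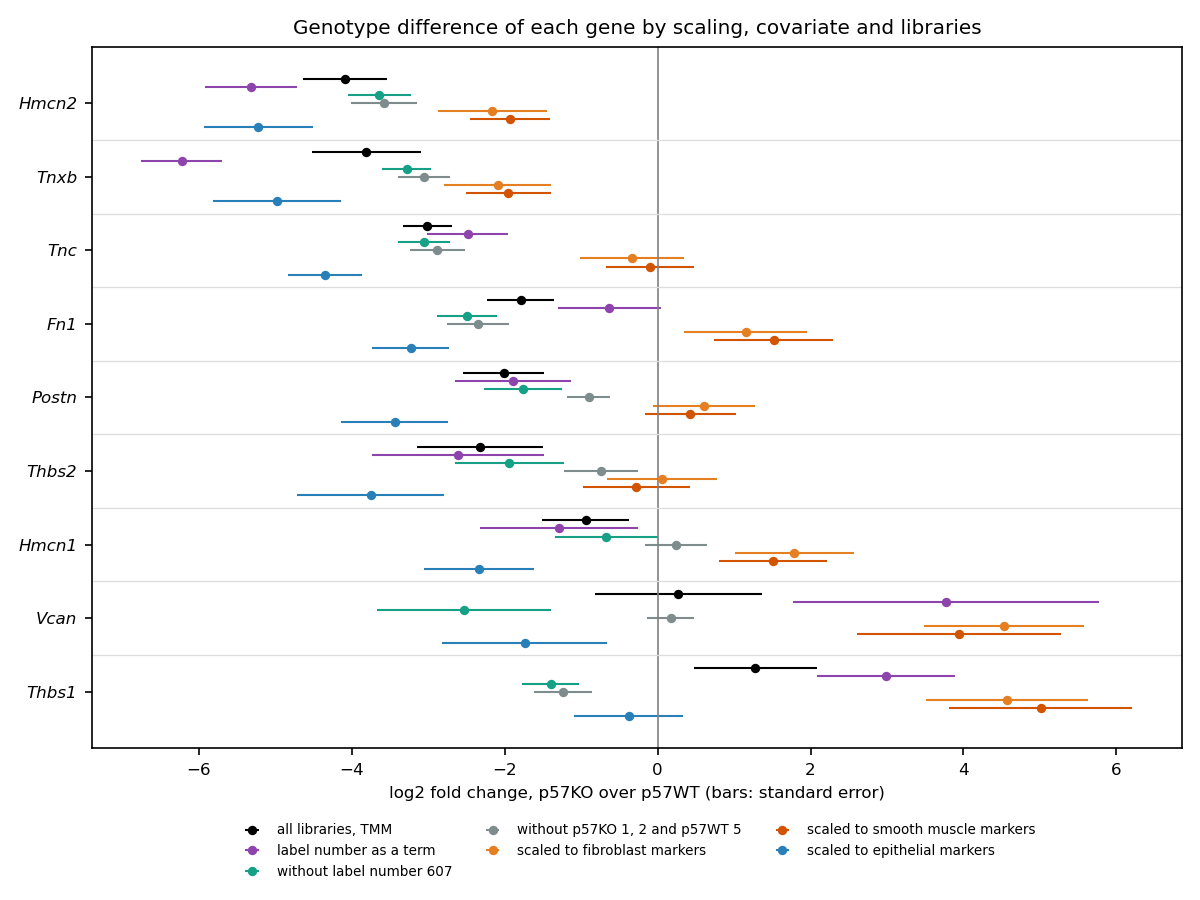
Log2 fold change of p57KO over p57WT for each gene (points, with the standard error as bars) over all libraries and under 6 other choices of covariate, libraries or scaling, shown as colours. Tnc lies between -4.35 and -0.10, and Vcan, Thbs1, Hmcn1, Fn1, Postn and Thbs2 lie on both sides of 0. Fn1 and Postn are above 0 only when scaled to fibroblast or smooth muscle markers, and Thbs2 only when scaled to fibroblast markers (0.06). The values of Hmcn2 and Tnxb, chosen by this contrast, are shown as a description.

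Relatives of these proteins fell in part. Of 9 tested family relatives, 4 fell and 1 rose, with a median log2 fold change of -1.40. Of all genes tested, 17.2% were called lower and 19.3% higher. The 4 were Thbs3 (-3.45, edgeR adjusted p = 0.000756) and Thbs4 (-1.40, 0.0266), which are pentameric thrombospondins, and the fibulins Efemp2 (-2.03, 0.00137) and Efemp1 (-1.66, 0.0434). Tnr, a tenascin of the nervous system, rose (1.94, edgeR adjusted p = 0.0321) from a low level (2.05 ± 0.711 CPM in p57KO, 0.537 ± 0.461 CPM in p57WT, SD, n = 5 each), and apart from Efemp2 these were named after their values were seen. Efemp2, needed to assemble elastic fibres, was at 6.79, 17.2, 32.5, 20.1 and 26.7 CPM across p57KO 1 to 5 and at 61.1, 118, 76.2, 75.0 and 93.1 CPM across p57WT 1 to 5, with no overlap. Tgfbi, the paralog of periostin (-0.33, edgeR adjusted p = 0.647), the fibulin Fbln1 (-0.52, 0.326) and the tenascin Tnn (-1.56, 0.146) did not pass. Without p57KO 2, which had 397 CPM, Tgfbi was at -1.29 and passed (edgeR adjusted p = 0.0072). The count of called relatives fell to 2 lower without p57KO 4, p57WT 2 or p57WT 4, and to 0 higher without p57KO 3, p57KO 4, p57WT 2, p57WT 4 or p57WT 5.

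Among 17 tested cell surface receptors of these glycoproteins, 9 fell and 3 rose (median -1.07). Over all genes tested, 17.2% were called lower and 19.3% higher. Itgb1, the integrin chain shared by most matrix receptors, fell (log2 fold change -1.18, SE 0.29, edgeR adjusted p = 0.00792), with 454, 831, 691 and 728 CPM in p57KO 1, 3, 4 and 5, a lower level still in p57KO 2, and 1040, 1880, 1260, 1310 and 1540 CPM across p57WT 1 to 5. Itga5, its partner in the fibronectin receptor, fell from 423 ± 129 to 82.5 ± 59 CPM (SD, n = 5 each; log2 fold change -2.36, edgeR adjusted p = 0.00407). Neither gene overlapped between genotypes, where 12.7% of all genes tested had every p57KO library below every p57WT library. Cd47, a thrombospondin receptor (1.12, edgeR adjusted p = 0.0544), and Sdc4, a heparan sulfate co-receptor for fibronectin (0.28, 0.439), did not pass. The 3 that rose, named after their values were seen, were Cd36, a thrombospondin receptor also present on enterocytes and macrophages (3.96, edgeR adjusted p = 0.00647), Itgb6, an integrin chain of epithelia (1.80, 0.00151), and Sdc1, an epithelial syndecan (0.51, 0.0474).

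Of 13 tested genes that make, bind or cut hyaluronan and versican, 6 fell and 1 rose (median -1.48). The shares over all genes tested were 17.2% lower and 19.3% higher. Adamts9, a versican protease gene, fell from 36.6 ± 9.23 to 7.24 ± 3.30 CPM (SD, n = 5 each; log2 fold change -2.34, edgeR adjusted p = 0.000599), and Adamts1, another, fell by 1.48 on the log2 scale (edgeR adjusted p = 0.011). Hyal2, a hyaluronidase gene (0.62, edgeR adjusted p = 0.052), and Cemip2, which encodes a surface protein that degrades hyaluronan (-0.69, 0.0817), did not pass. The gene that rose was Hapln1, a link protein of hyaluronan and versican (3.18, edgeR adjusted p = 0.00995), named after its values were seen. It was at 3.44, 1.06, 42.5, 46.8 and 28.9 CPM across p57KO 1 to 5 and at 1.30 to 4.11 CPM in p57WT. The high libraries were p57KO 3 to 5, all of label number 608, and p57KO 1 and p57KO 2 lay within or below the p57WT range. A second gene of the list passed as higher, for a count of 2, without p57KO 1, p57KO 5 or p57WT 2.

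Of 16 tested other matrix glycoproteins, 12 fell and 0 rose (median -1.69, range -3.48 to 1.73). All p57KO libraries were below all p57WT libraries for 9 of them, against 12.7% of all genes tested. Sparcl1, an adhesion-modulating glycoprotein gene and the most abundant of them, fell from 1900 ± 353 to 436 ± 317 CPM (SD, n = 5 each; log2 fold change -2.13, edgeR adjusted p = 0.0104). Its paralog Sparc fell by 2.12 on the log2 scale (edgeR adjusted p = 0.0065). Nid1, which links laminin to collagen in basement membranes, fell by 2.86 (edgeR adjusted p = 0.00138), and Hspg2, the gene of the basement membrane proteoglycan perlecan, fell by 3.48 (edgeR adjusted p = 0.00262). Hspg2 had 118 CPM in p57KO 5 and 8.43 to 23.2 CPM in p57KO 1 to 4, and without p57KO 5 its value was -4.65. These lists are described by counts beside the 17.2% of genes called lower and 19.3% called higher, and 10 of 10 smooth muscle markers and 6 of 8 fibroblast markers fell as well. Their part in the lists was not tested.

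**Figure D4:**
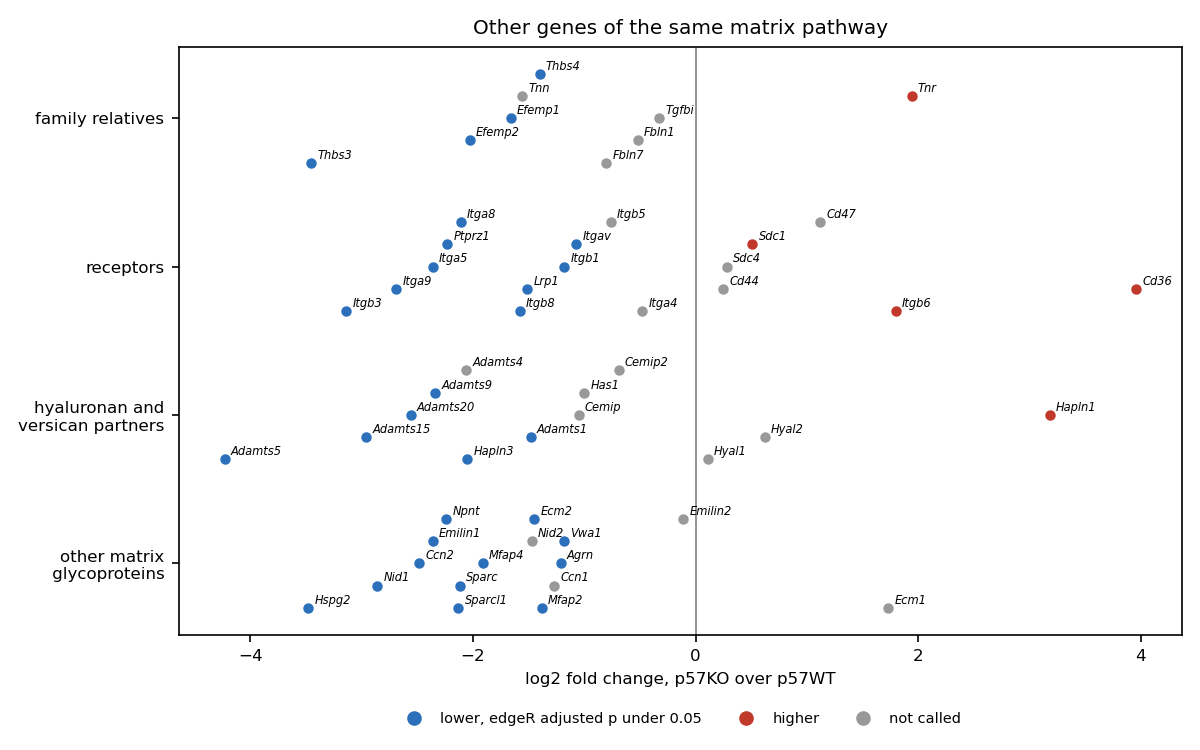
Log2 fold change of p57KO over p57WT for each tested gene of 4 lists of the same matrix pathway, with genes called lower in blue, called higher in red and not called in grey. Most points lie left of 0, from -4.23 for Adamts5, which had 51.7 CPM in p57WT 5 and at most 5.58 CPM in the other p57WT libraries, to 3.96 for Cd36, and the other matrix glycoproteins hold no gene called higher.

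For each of the 9 genes, the genes most like it were taken by the Pearson correlation of deviations from the genotype mean over the 10 libraries, among 11337 candidates, as a description. Hmcn2 was most like Clip4 (0.986), Palld (0.984), an actin scaffold gene, and Nrp2 (0.983), a semaphorin and VEGF co-receptor gene. Tnxb was most like Col6a3 (0.990), a collagen VI chain, Gli3 (0.987), a Hedgehog pathway factor, and Tead2 (0.986). The nearest to Tnc was Tcf21 (0.944), a mesenchymal transcription factor gene, and the nearest to Fn1 was F8a (0.975). Postn was most like Sema3d (0.971) and Mdk (0.970), the growth factor midkine, and Thbs2 most like Sulf1 (0.981), a heparan sulfatase gene, and Igf1 (0.978). Vcan was most like Gripap1 (0.977) and Pf4 (0.972), the platelet factor 4 gene. Thbs1 was most like Ecm1 (0.986) and Osm (0.983), a myeloid cytokine gene, and Hmcn1 most like Mex3b (0.930). At these depths and with 10 libraries, many genes share the same few high or low libraries.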

How the data were processed

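RNA was counted per gene in 10 libraries of sorted Hopx-GFP cells. The authors deposited whole-number read counts per gene and library, a signal value (the count divided by a single size factor per library), and their own comparison as log2 fold changes with adjusted p-values, per the file headers. Tools named by the submitters' processing notes are DESeq2 1.22.2, HTSeq 1.0, STAR 2.6.1d, Cufflinks 2.2.1, Trim Galore and FastQC, and the build is mm10 (GRCm38). The strand setting is not given in the sources used here: Tnc, Fn1, Hmcn1 and Thbs1 share 176 to 399 exon bases with genes on the opposite strand, whose reads could not be told apart. Coordinates and exon lengths came from GENCODE M21.

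The counts were tested with edgeR 4.0.16 in R 4.3.3 (quasi-likelihood, TMM scaling, the tool's expression filter, which removed 3869 genes and left 16710, genotype as the only term), with Benjamini-Hochberg adjustment over all genes and a threshold of 0.05. Every adjusted p printed comes from an edgeR fit of this kind, with the term, scaling, filter or libraries changed where named. The genotype fit and the label number contrast within p57KO were tested on simulated data, and the other fits were not. Standard errors were taken from the fitted coefficient and its F statistic. All 9 genes passed the filter. Logarithms of CPM used a pseudocount of 0.5. Samples were grouped by the genotype in their titles. Alternatives included DESeq2 1.42.0 and limma 3.58.1 voom. No 2 libraries of a genotype agreed within sampling noise (chi-square per degree of freedom 9.5 to 314). The genes, lists and rules were chosen with earlier results of these data known. Named genes were the 9, Cdkn1c, the 4 most abundant of each list and the 3 most alike of each gene; not all are named, and symbols not in the files or removed by the filter were not analysed here. The 95% limits of fold changes include the spread between libraries, and the floor of 3 counts covers counting error only.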

Additional observations from a re-analysis of the deposited data

Results flagged for a closer look

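Some libraries lay far from the other 4 of their genotype by Dixon's test at its 95% level (critical value 0.710). For normally distributed values it flags about 1 group in 20 by chance. It was run here on CPM without logarithms, and the genes share the same libraries, so that rate need not hold. This held for 13 results over 50 groups of 5 (the 9 genes and the 4 most abundant of each list, in each genotype). In p57WT 5, Vcan was at 140 CPM with the next library at 6.72 CPM, Hmcn1 at 17.2 against 4.44 CPM, Postn at 590 against 217 CPM, Sparc at 2350 against 1010 CPM and Fbln1 at 172 against 69.1 CPM. In p57KO 2, Vcan was at 137 CPM against 39.8 CPM in the next, Thbs1 at 1430 against 338 CPM, Tgfbi at 397 against 87.5 CPM and Cd47 at 471 against 183 CPM. The others were Tnn in p57WT 2 at 92.1 against 41.6 CPM, Adamts9 in p57WT 1 as the lowest at 20.4 against 39.1 CPM, Sparc in p57KO 1 as the lowest at 48.9 against 270 CPM, and Hspg2 in p57KO 5 at 118 against 23.2 CPM. The part of cell makeup, ribosomal RNA share or label number in these single libraries was not tested.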

How the results depend on the processing

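Of 672 single-gene values recomputed, 556 kept direction and side of the threshold, 28 no longer passed, 36 newly passed, 47 turned sign and 5 moved by more than the spread. Where a cause is not named, the cause was not tested. Calls over all genes (6107) were 1009 (183 higher, 826 lower) with label number as a term, 2959 (1207 higher, 1752 lower) with the ribosomal RNA class, 10472 (467 higher, 10005 lower), 13790 (13739 higher, 51 lower) and 14334 (14279 higher, 55 lower) when scaled to epithelial, fibroblast and smooth muscle markers, against 52.8% higher in the main fit and 47.2% with limma voom. Leaving out each library gave 4763 to 7141 calls, 3 to 4 lower and 0 to 1 higher among the 7 genes, 2 to 4 lower and 0 to 1 higher relatives, 6 to 9 and 2 to 4 receptors, 4 to 7 and 1 to 2 hyaluronan and versican partners, and 9 to 14 and 0 to 0 other glycoproteins. The count for label number within p57KO (1116) ranged from 348 to 1393 in that way. The Thbs1 to Thbs2 difference ranged from 1.20 to 2.88 (exact permutation p from 0.183 to 0.556).

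Lower calls among the 7 genes (4) were 1 with label number as a term and 2 with the ribosomal RNA class. They were 3 with no expression filter, where 2943 of 20579 genes were called lower and 3546 higher. With fibroblast or smooth muscle scaling they were 0, and 3 and 2 genes were higher. Lower calls were also 4 without label number 607 and without p57KO 1, p57KO 2 and p57WT 5, with Thbs1 called and Thbs2 not. Relatives (4 lower, 1 higher) were 2 lower and 0 higher with the ribosomal RNA class, 0 higher with label number and without p57KO 1, p57KO 2 and p57WT 5, 8 lower and 0 higher with epithelial scaling, and 0 lower and 3 higher with either fibroblast or smooth muscle scaling. Receptors (9 and 3) were 3 and 0 with label number, 1 higher with the ribosomal RNA class, 14 and 1 with epithelial, and 0 lower and 10 or 11 higher with fibroblast or smooth muscle scaling. Hyaluronan and versican partners (6 and 1) were 2 lower with label number, 11 lower with epithelial scaling, 0 lower and 6 or 5 higher with fibroblast or smooth muscle scaling, 2 higher with DESeq2 size factors, the DESeq2 test or ribosomal RNA features left out, and 0 higher with limma voom. Other glycoproteins (12 and 0) were 6 lower with label number, and 0 lower and 3 or 5 higher with fibroblast or smooth muscle scaling.

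Signs turned with fibroblast and smooth muscle scaling, which move all genes up by construction, for Hmcn1 (1.79, 1.51), Fn1 (1.15, 1.52), Postn (0.61, 0.43), Tgfbi (2.77, 3.11), Fbln1 (2.31, 2.21), Efemp2 (0.26, 0.50), Tnn (0.09, 0.32), Itgb1 (1.38, 1.51), Adamts1 (1.55, 1.67), Cemip2 (2.42, 2.44) and Sparc (0.36, 0.43), with fibroblast scaling for Thbs2 (0.06) and with smooth muscle scaling for Adamts9 (0.22). With epithelial scaling they turned for Vcan (-1.74), Thbs1 (-0.38), Sdc4 (-1.09), Cd47 (-0.39) and Hyal2 (-0.73). Without label number 607 they turned for Vcan (-2.53), Thbs1 (-1.40) and Sdc4 (-0.18), and without p57KO 1, p57KO 2 and p57WT 5, chosen after seeing the data, for Hmcn1 (0.24), Thbs1 (-1.24), Fbln1 (0.18) and Sdc4 (-0.25). With the ribosomal RNA class they turned for Thbs1 (-0.19), Fbln1 (0.18) and Sdc4 (-0.09), and with label number for Tgfbi (0.96). Leaving out single libraries turned Vcan (range -1.18 to 2.70, below 0 without p57KO 2 or p57WT 4), Thbs1 (-0.31 to 1.59, below 0 without p57KO 2), Fbln1 (-0.72 to 0.05, above 0 without p57WT 5) and the label number difference of Tnc (-0.21 to 0.80, below 0 without p57KO 1 or p57KO 5). Scaled to the longest transcript, Fn1 was at 85.6 and Postn at 45.3 CPM per kb in p57WT.

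Replicate numbers in the titles gave no evidence of pairing: correlations of deviations between same-numbered libraries were 0.23, 0.06, -0.15, -0.15 and 0.17, and not every library matched its own number best. With the replicate block 5804 of 16710 genes passed, 2943 lower and 2861 higher, and 4 of the 7 genes fell. In that fit Thbs1 was at -0.06 (edgeR adjusted p = 0.952). The Thbs1 to Thbs2 difference with the block was 2.2 (exact permutation p = 0.312).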
